A study of Mus musculus with 20 samples.

Results

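A set of 8 genes of the red cell lineage was followed in perinatal mouse pancreas: Alas2, Slc4a1, Epb42, Ahsp, Klf1, Gata1, Tfrc and Fech. They were listed by gene symbol, and 7 of the 8 had a probe set with that gene as its only symbol, out of 30063 genes measured in all; Ahsp was not analysed here. Each gene is represented by its single-symbol probe set with the highest mean over all arrays. RNA of whole pancreas from C57BL/6J mice was measured on 20 Affymetrix arrays. The groups were Iir -/- animals, deficient in inceptor, at embryonic day 18.5 (E18.5, 5 arrays) and on the day of birth (P0, 6 arrays), and Iir +/+ animals at E18.5 (4 arrays) and P0 (5 arrays). Iir is the labels' name for Elapor1, whose product, inceptor, is a transmembrane protein that restrains insulin receptor signalling. Mothers of the E18.5 animals had been starved for 2 h and P0 pups for 5 h, so age and starvation moved together. Sex was not determined. How the Iir -/- allele was made is not given in the sources used here, and nothing in the labels ties arrays to single animals or litters, so p-values measure only the spread between these samples.

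Red cell precursors make haem in a chain of enzymes that starts in mitochondria with ALAS2 and ends there with ferrochelatase, and they load the iron through the transferrin receptor. The transcription factors GATA1 and KLF1 switch on these enzymes, the globins and the membrane proteins that give a red cell its shape. In the mouse fetus red cells are made mainly in the liver, and around birth production shifts to spleen and bone marrow. The pancreas is not a known site of red cell production. Blood left in a dissected organ carries young red cells that still hold RNA.

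Levels are log2 signals, on which a step of 1 is a doubling. Array medians over all probe sets lay between 4.81 and 4.94, so a value near 5 is close to that of a typical, mostly dim probe set. Elapor1 separated the genotypes on all 20 arrays, at 5.58 to 6.50 in the knockout and 11.07 to 12.06 in the wild type. The mean of 9 acinar markers, which define most of the pancreas, was 14.67 to 16.02 on every array. This is a coarse check, since Cel, Cpa1 and Cpb1 differed by 0 between ages and between genotypes. Ptf1a, Bhlha15 and Rbpjl differed by -3.03, -1.79 and -1.26 between P0 and E18.5 in wild type. The array labelled E18.5 knockout 1 stood apart for embryonic globins, and 5 arrays (E18.5 knockout 1, 2 and 4, E18.5 wild type 4 and P0 knockout 4) had a mean over 7 for 10 intestinal or 10 skeletal muscle markers. Results that rest on these arrays are given with and without them.

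Not every gene under the label "erythroid" gave a clear signal, and a clear signal does not by itself mark red cells. Tfrc and Fech are also expressed in other cells. Alas2, Slc4a1, Tfrc and Fech were above the array median on 20 of 20 arrays and Klf1 on 11, whereas Epb42 and Gata1, the latter a defining factor of the lineage, were above it on none. Of the 7 measured genes 5 therefore passed the signal filter and were tested; values for Epb42 and Gata1 come from a fit without that filter.

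The promoters of 5 of the 8 genes were in the RefSeq promoter table used here (build GRCm38.p6). The 250 bases before the start site are shown for the 4 genes most restricted to blood lineages. They were searched for motifs that GATA1 and KLF1 are known to recognise. Capitals mark matches on either strand to the GATA motifs searched, which were spelled AGATAA and also TGATAA. They also mark matches to the KLF1-type motif, spelled CCNCNCCC, which can overlap one another.
Alas2, chrX:150547167-150547416, plus strand: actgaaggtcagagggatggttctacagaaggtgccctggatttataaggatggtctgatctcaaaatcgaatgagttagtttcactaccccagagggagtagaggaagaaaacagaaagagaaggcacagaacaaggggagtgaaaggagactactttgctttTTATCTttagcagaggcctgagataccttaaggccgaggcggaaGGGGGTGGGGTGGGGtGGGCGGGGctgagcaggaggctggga
Klf1, chr8:84901732-84901981, plus strand: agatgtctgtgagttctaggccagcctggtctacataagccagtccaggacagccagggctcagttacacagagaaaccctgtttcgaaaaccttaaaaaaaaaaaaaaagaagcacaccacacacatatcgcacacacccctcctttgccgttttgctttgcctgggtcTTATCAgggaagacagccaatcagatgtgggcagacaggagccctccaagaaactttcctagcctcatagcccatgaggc
Epb42, chr2:121036878-121037127, minus strand: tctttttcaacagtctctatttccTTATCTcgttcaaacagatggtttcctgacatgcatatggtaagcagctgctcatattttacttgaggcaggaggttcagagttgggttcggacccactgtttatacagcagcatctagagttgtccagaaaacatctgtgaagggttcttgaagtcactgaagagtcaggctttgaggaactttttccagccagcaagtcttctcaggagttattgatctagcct
Gata1, chrX:7967911-7968160, minus strand: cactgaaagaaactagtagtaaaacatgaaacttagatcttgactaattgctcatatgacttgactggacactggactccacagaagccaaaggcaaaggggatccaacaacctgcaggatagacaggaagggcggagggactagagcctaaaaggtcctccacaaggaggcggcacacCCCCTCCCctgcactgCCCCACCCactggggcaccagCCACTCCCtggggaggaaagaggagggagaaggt

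Alas2 held 1 AGATAA match, on the opposite strand, and 4 overlapping or neighbouring CCNCNCCC matches closer to the start. Klf1 held 1 TGATAA match, Epb42 held 1 AGATAA match and Gata1 held 3 CCNCNCCC matches with no GATA motif. Such matches are common: 16.6% of 32851 promoters of this length held a GATA motif and 45.9% held CCNCNCCC. A match describes letters only, and the arrays did not measure binding.

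The first enzyme of haem synthesis, Alas2 (5-aminolevulinate synthase of red cell precursors), varied most among the 7 genes, with values from 7.71 to 9.89. At E18.5 its values were 7.71, 7.83, 8.98 and 8.48 on wild-type arrays 1 to 4. On E18.5 knockout arrays 1 to 5 they were 9.68, 9.89, 8.95, 8.73 and 9.59. The knockout arrays were the higher at this age, with 3 of 5 above every wild-type array, and the groups overlapped only through wild type 3, which lay above knockouts 3 and 4. On P0 wild-type arrays 1 to 5 Alas2 read 8.18, 8.77, 8.67, 8.62 and 9.24. On the 6 P0 knockout arrays the lowest value was 7.92, the median 8.88 and the highest 9.49. At birth the genotypes overlapped widely. Group means in the order E18.5 wild type, E18.5 knockout, P0 wild type, P0 knockout were 8.25 ± 0.59 (SD, n = 4), 9.37 ± 0.50 (n = 5), 8.70 ± 0.38 (n = 5) and 8.86 ± 0.52 (n = 6).

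The last enzyme, Fech (ferrochelatase, which inserts iron into the porphyrin ring in every cell that makes haem), showed its lowest values in E18.5 wild type. There it read 6.64, 6.71, 6.90 and 7.16 on arrays 1 to 4, with a mean of 6.85 ± 0.23 (SD, n = 4). On P0 wild-type arrays it read 7.56, 7.23, 7.23, 7.46 and 7.25, with a mean of 7.35 ± 0.15 (n = 5). These groups did not overlap: each of the 5 P0 arrays was above every E18.5 wild-type array. E18.5 knockout arrays read 7.63, 7.57, 7.02, 6.82 and 7.42, with a mean of 7.29 ± 0.36 (n = 5). The 6 P0 knockout arrays ran from 6.82 through a median of 7.31 to 8.04, with a mean of 7.35 ± 0.42. Both knockout groups overlapped with both wild-type groups.

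Tfrc, the transferrin receptor through which dividing cells and above all red cell precursors take up iron, was a well-expressed member at every age. E18.5 wild-type arrays 1 to 4 read 8.09, 8.01, 8.53 and 8.58. E18.5 knockout arrays 1 to 5 read 8.43, 8.65, 8.22, 8.98 and 8.45. The P0 wild-type arrays read 8.46, 8.34, 8.09, 7.80 and 7.92, and the P0 knockout arrays ran from 7.96 through a median of 8.37 to 8.84. All 4 groups overlapped, with means of 8.30 ± 0.29, 8.55 ± 0.29, 8.12 ± 0.28 and 8.38 ± 0.35 in the order used for Alas2. Dividing cells of other types also express this gene, so it does not mark red cells alone.

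The membrane genes were dimmer. Slc4a1 encodes band 3, the chloride and bicarbonate exchanger that anchors the red cell skeleton. Its E18.5 wild-type arrays read 5.08, 5.22, 5.62 and 5.41, and its E18.5 knockout arrays 5.60, 5.46, 5.19, 5.49 and 5.98. Its P0 wild-type arrays read 5.02, 5.55, 5.42, 5.35 and 5.20, and the P0 knockout arrays ran from 5.04 through a median of 5.55 to 6.10. The highest readings were single knockout arrays, E18.5 knockout 5 and P0 knockout 4, and the groups overlapped throughout, with means of 5.33 ± 0.23, 5.54 ± 0.29, 5.31 ± 0.20 and 5.56 ± 0.38. Epb42 encodes protein 4.2, which ties band 3 to ankyrin. It stayed between 4.22 and 4.69 on all 20 arrays, below each array's median.

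Among the factors, Klf1, the erythroid Krüppel-like factor that activates adult beta globin, lay between 4.58 and 5.23, around the array median. Its means were 4.95 ± 0.19, 4.90 ± 0.21, 4.83 ± 0.19 and 4.95 ± 0.20. Gata1, which red cell, megakaryocyte and mast cell precursors need, lay between 4.11 and 4.45, with means from 4.22 to 4.31. Neither factor separated any pair of groups in these values.

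**Figure D1:**
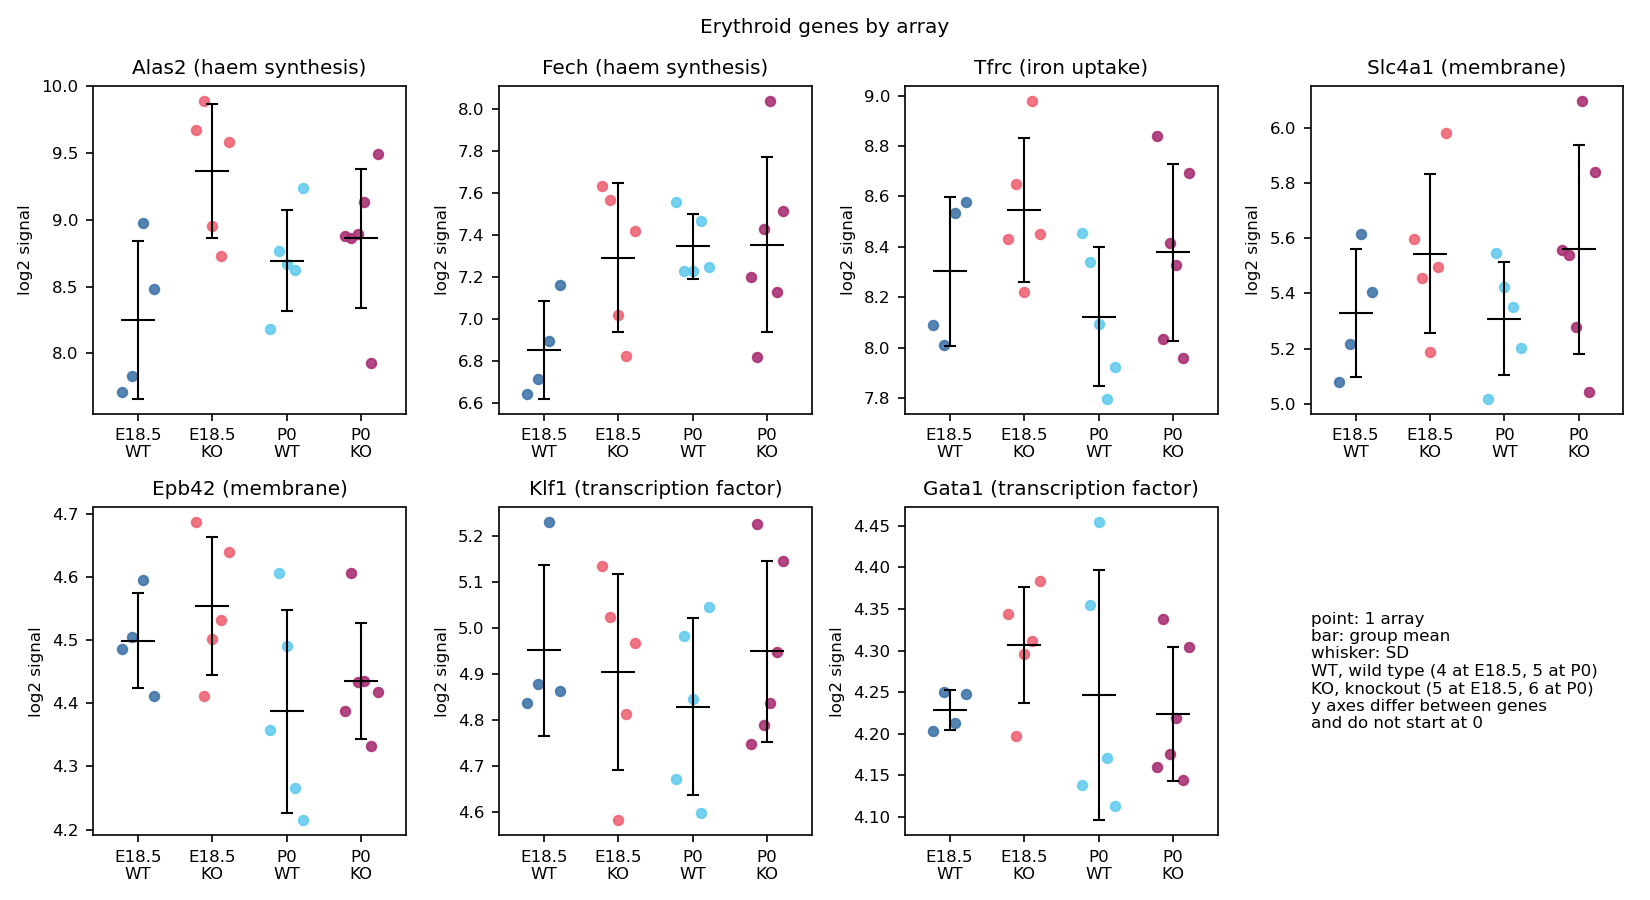
Log2 signal of the 7 measured erythroid genes on each of the 20 arrays (points), by group, with group means. Alas2 spans 7.71 to 9.89 and is higher on most E18.5 knockout arrays than in E18.5 wild type, whereas Epb42 and Gata1 sit below the array medians throughout.

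Around birth in wild-type pancreas, no erythroid gene passed the test. Of the 5 tested genes 0 were called by limma at an adjusted p under 0.05, against 8.86% of all 17993 genes tested, and 1 had an unadjusted p under 0.05. That gene was Fech, higher at P0 by 0.49 ± 0.20 on the log2 scale (SE; 95% interval 0.06 to 0.92), with an adjusted p of 0.144. Without the 5 marker-rich arrays its difference was 0.60 with an adjusted p of 0.0336, so whether it passed depended on those arrays. Alas2 differed by 0.44 ± 0.32 (interval -0.22 to 1.11), with 4 of 5 P0 arrays above the E18.5 mean and an adjusted p of 0.422. Slc4a1 differed by -0.02 ± 0.19 (interval -0.42 to 0.38). Tfrc differed by -0.18 ± 0.20, Klf1 by -0.12 ± 0.13, Epb42 by -0.11 ± 0.08 and Gata1 by 0.02 ± 0.07, none with an adjusted p below 0.517. The median difference of the 5 tested genes was -0.02, beside 0.01 over all genes. In whole-organ RNA, fewer cells of a type and less RNA per cell cannot be told apart.

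The same step in knockout pancreas compares other arrays, although the spread behind its errors is estimated over all 20. Here 0 of 5 erythroid genes were called by limma and 0 had an unadjusted p under 0.05, against 23.0% of all genes called. Alas2 was 0.50 ± 0.29 lower at P0 in its point estimate (-0.50, interval -1.11 to 0.10), with 5 of 6 P0 arrays below the E18.5 mean and an adjusted p of 0.227. Fech differed by 0.06 ± 0.18, Slc4a1 by 0.02 ± 0.17, Tfrc by -0.17 ± 0.18 and Klf1 by 0.04 ± 0.12. Epb42 differed by -0.12 ± 0.07 and Gata1 by -0.08 ± 0.06. The median over the 5 tested genes was 0.02, beside 0.00 over all genes.

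Inceptor loss at E18.5 went with the largest member difference in any comparison, and it did not pass the test. Alas2 was 1.12 ± 0.32 higher in the knockout (interval 0.45 to 1.78; 2.17-fold), with 5 of 5 knockout arrays above the wild-type mean. Its unadjusted p was 0.00249 and its adjusted p 0.686. Limma called 0 of 5 members and 0.0111% of all genes, and 2 members had an unadjusted p under 0.05. Over the alternatives its adjusted p ran from 0.377 to 1.0. The difference was 1.04 (adjusted p 0.731) without E18.5 knockout 1, 1.10 (0.97) without the 5 marker-rich arrays, and 1.19 (0.624) with the liver marker mean as a covariate. Leaving out each array in turn gave 0.94 to 1.36, so its direction did not rest on any one array. Fech, the other of these 2 genes, was 0.44 ± 0.20 higher (interval 0.01 to 0.87), with 4 of 5 knockout arrays above the wild-type mean and an adjusted p of 0.911. Tfrc differed by 0.24 ± 0.20, Slc4a1 by 0.21 ± 0.19, Klf1 by -0.05 ± 0.13, Epb42 by 0.06 ± 0.08 and Gata1 by 0.08 ± 0.07. The median over the 5 was 0.24, beside 0.02 over all genes.

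At P0 the genotypes were closer for Alas2, which differed by 0.17 ± 0.29 (adjusted p 0.9), and for Fech, which differed by 0.01 ± 0.18. Slc4a1 differed by 0.25 ± 0.17, Tfrc by 0.26 ± 0.18 and Klf1 by 0.12 ± 0.12, with no adjusted p below 0.691. Epb42 differed by 0.05 ± 0.07 and Gata1 by -0.02 ± 0.06. Limma called 0 of 5 members, beside 0.0111% of all genes, and 0 had an unadjusted p under 0.05. Members had a median of 0.17, beside 0.01 over all genes.

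Whether the step around birth differed between genotypes was tested directly. For Alas2 the knockout step minus the wild-type step was -0.95 ± 0.43 (interval -1.85 to -0.05), with an unadjusted p of 0.0399 and an adjusted p of 0.705. Limma called 0 of 5 members and 0% of all genes; 1 member and 1256 genes had an unadjusted p under 0.05. Fech gave -0.43 ± 0.28, Slc4a1 0.04 ± 0.25, Klf1 0.17 ± 0.18 and Tfrc 0.01 ± 0.27. These 5 comparisons share arrays, so the values of Alas2 in them are not separate evidence: its low E18.5 wild-type mean enters 3 of them.

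**Figure D2:**
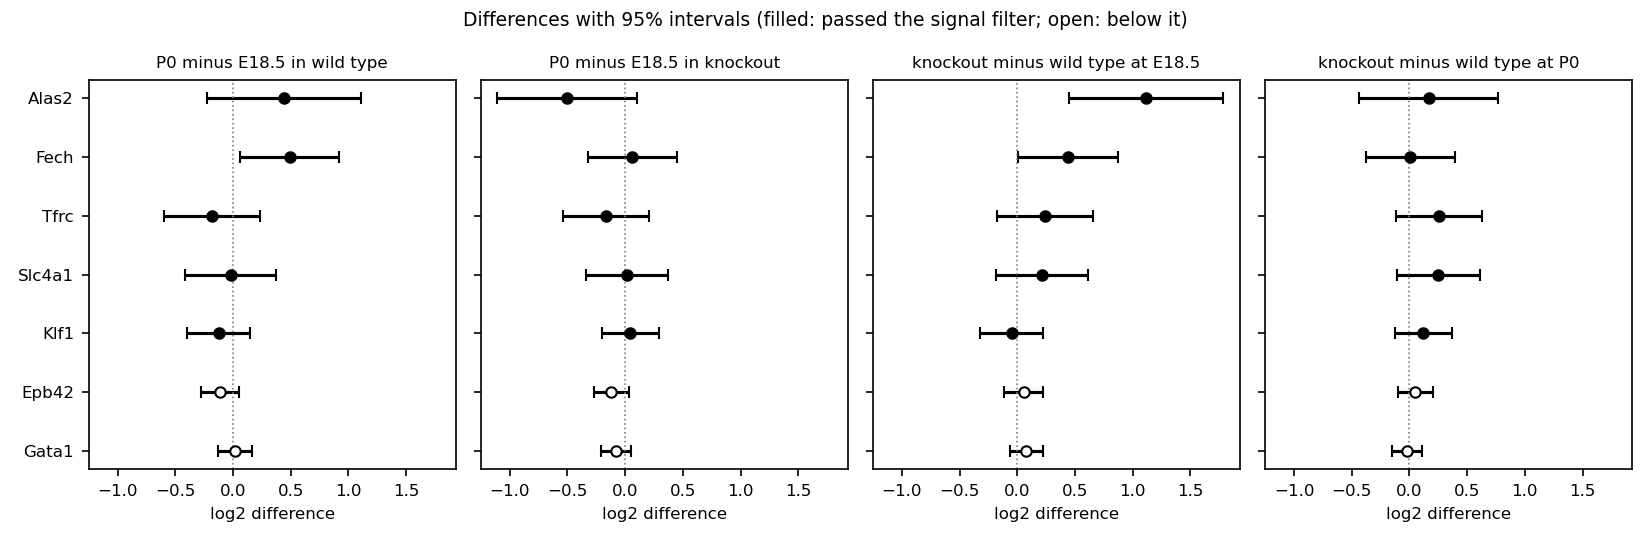
Log2 difference of each measured erythroid gene in the comparisons, with its 95% interval. The interval of Alas2 for knockout minus wild type at E18.5, 0.45 to 1.78, is the farthest from 0, and no adjusted p was under 0.05.

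For the counts in the gene lists that follow, 4.76% of all tested genes rose and 4.10% fell around birth in wild type, and 11.3% rose and 11.7% fell in the knockout. Elsewhere in haem synthesis, the only calls were falls around birth. Of 6 other tested enzymes, 1 fell and 0 rose around birth in wild type, and 2 fell in the knockout, with median differences of -0.16 and -0.30. Cpox, coproporphyrinogen oxidase, fell in both genotypes, by 0.74 ± 0.14 in wild type (adjusted p 0.00391; 5 of 5 arrays) and by 0.96 ± 0.12 in the knockout (adjusted p 6.43e-05; 6 of 6 arrays), with no overlap between ages in either. It was called under every alternative tried. Uros, uroporphyrinogen III synthase, fell by 0.27 ± 0.09 in the knockout (adjusted p 0.0389), but this call was lost under 10 alternatives, 6 of which left out 1 array (E18.5 knockout 2, 3 or 4, or P0 knockout 1, 3 or 4; adjusted p 0.0731 to 0.113). Cpox and Uros act in all cells that make haem.

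Of the iron genes, 1 of 11 rose and 0 fell in wild type (median -0.01), and 1 rose and 3 fell in the knockout (median -0.06). Ireb2, an iron-sensing protein that controls Tfrc messenger stability, rose by 0.46 ± 0.11 in wild type (adjusted p 0.0196) and by 0.45 ± 0.10 in the knockout (adjusted p 0.00468). Its wild-type call was lost without E18.5 wild type 1 or 2 (adjusted p 0.0549 to 0.0754). In the knockout the iron transporter Slc11a2 fell by 0.70 ± 0.11 (adjusted p 0.000368), the mitochondrial glutaredoxin Glrx5 by 0.66 ± 0.17 (adjusted p 0.00958) and Aco1, the other iron-sensing protein, by 0.42 ± 0.09 (adjusted p 0.00271). Without the 5 marker-rich arrays, which take 3 of the 5 E18.5 knockout arrays, Ireb2, Slc11a2 and Glrx5 missed the threshold in the knockout at differences of 0.27, -0.47 and -0.69 (adjusted p 0.28, 0.0682 and 0.148), while Aco1 remained called at -0.53.

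Among red cell membrane and skeleton genes, 0 of 10 were called in wild type (median -0.03; 0 with an unadjusted p under 0.05 by limma), and 1 fell in the knockout (median -0.03). That gene was Xk, a membrane protein of red cells that pairs with Kell, at -0.31 ± 0.10 (adjusted p 0.033). Its call was lost under 12 alternatives, 7 of which left out 1 array (E18.5 knockout 2, 3 or 5, or P0 knockout 1, 4, 5 or 6; adjusted p 0.0542 to 0.09). In wild type, Tmod1 at 0.26 ± 0.12, Rhd at -0.35 ± 0.19, Rhag at -0.39 ± 0.28 and Xk at -0.19 ± 0.11 did not pass.

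Of 9 erythroid transcription and signalling genes, 1 rose in wild type (median -0.10), and 2 rose and 1 fell in the knockout (median -0.01). Ldb1, the adaptor that bridges GATA1 complexes and is expressed in many tissues, rose by 0.52 ± 0.15 in wild type (adjusted p 0.0381) and by 0.51 ± 0.14 in the knockout (adjusted p 0.0116). Its wild-type call was lost under 12 alternatives, 6 of which left out 1 array (E18.5 wild type 1, 3 or 4, or P0 wild type 3, 4 or 5; adjusted p 0.0661 to 0.115). In the knockout Zfpm1, the GATA1 partner FOG1, fell by 0.36 ± 0.08 (adjusted p 0.00405) and Cited2 rose by 0.46 ± 0.15 (adjusted p 0.0314). Cited2 was not called without any one of E18.5 knockout 1, 2 or 4 or P0 knockout 3, 5 or 6 (adjusted p 0.059 to 0.0786). Without the marker-rich arrays Ldb1, Zfpm1 and Cited2 missed the threshold in the knockout at differences of 0.42, -0.38 and 0.31 (adjusted p 0.295, 0.109 and 0.525).

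The red cell enzyme list also holds Rhd, the Rh protein that is counted with the membrane genes too. In this list 1 of 11 fell in wild type (median -0.12) and 5 of 11 fell in the knockout (median -0.34). These falls stand beside the 4.10% and 11.7% of all genes that fell, and 0 rose in either. Isg20, a nuclease listed for its level in red cell precursors, fell by 0.49 ± 0.13 in wild type (adjusted p 0.0259) and by 0.78 ± 0.12 in the knockout (adjusted p 0.000202). Its wild-type call was lost under 9 alternatives, 5 of which left out 1 array (E18.5 wild type 2, 3 or 4, or P0 wild type 1 or 5; adjusted p 0.0512 to 0.0697). In the knockout Mgst3 fell by 0.94 ± 0.25 (adjusted p 0.0112), catalase (Cat) by 0.52 ± 0.13 (adjusted p 0.00726) and Prdx2, an abundant red cell peroxidase, by 0.42 ± 0.14 (adjusted p 0.0433). Without the marker-rich arrays these 3 missed the threshold at differences of -0.32, -0.54 and -0.40 (adjusted p 0.438, 0.134 and 0.304), so that only Mgst3 shrank by more than 1.5 times. Prdx2 also missed it when any of 8 single arrays was left out (E18.5 knockout 1 to 4, or P0 knockout 2, 3, 5 or 6; adjusted p 0.0575 to 0.0952). Proliferation markers moved with them, with 2 of 13 called lower in wild type and 8 of 13 in the knockout; their part in these changes was not tested.

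Between genotypes, 0 genes of these lists were called by limma at either age. At E18.5, 11 of 11 iron genes (Slc11a2 at 0.00) and 11 of 11 genes of the enzyme list had positive differences. Their medians were 0.07 and 0.21 beside 0.02 over all genes, and 1 in each had an unadjusted p under 0.05 by limma. Marker lists of other kinds leaned the same way, with 7 of 7 skeletal muscle, 7 of 8 intestinal and 12 of 13 proliferation genes positive. Macrophage, endothelial and liver markers leaned the other way, with 1 of 11, 2 of 9 and 3 of 12 positive. Haem enzymes had a median of 0.10, membrane genes -0.01, transcription genes 0.03 and the 3 tested globins 0.57. The globin median rested on E18.5 knockout 1 and was 0.04 without it. At P0 the medians of the 6 lists lay between -0.03 and 0.04, and 1 membrane gene, 1 iron gene and 1 enzyme had an unadjusted p under 0.05.

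The globins that could be read were embryonic or minor ones, since adult Hba and Hbb probe sets are shared between gene symbols and were not analysed here. Hbb-y, the embryonic epsilon-like beta globin of yolk-sac red cells, read 12.89 on E18.5 knockout 1 and 5.34 to 6.66 on the other 19 arrays. Hba-x, the embryonic zeta globin, read 7.22 on that array and 4.37 to 5.15 elsewhere. Hbb-bh1, the other yolk-sac beta globin, read 4.95 there and 3.57 to 4.24 elsewhere, below the array medians. The members did not stand apart in the same way. Alas2 was 9.68 on that array, lower than on E18.5 knockout 2, and its Slc4a1, Klf1, Gata1, Tfrc and Fech values lay within those of the other arrays. Its Epb42 value of 4.69 was the highest of 20, though below the array median. The same array also held the highest Npy (16.02), Th (9.11), Dbh (9.05) and Cxcl13 (9.86) readings and a skeletal muscle marker mean of 7.43; what links these values was not tested.

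With all arrays, Hbb-y differed between P0 and E18.5 by -0.65 ± 0.96 in wild type (adjusted p 0.737) and by -2.01 ± 0.87 in the knockout (adjusted p 0.106). Without E18.5 knockout 1 the differences were -0.65 ± 0.20 (adjusted p 0.0484) and -0.68 ± 0.19 (adjusted p 0.0186). Without the 5 marker-rich arrays, which include that array, Hbb-y was called in wild type at -0.85 (adjusted p 0.0197 by limma). It was not called in the knockout, at -0.53 (adjusted p 0.204). All 5 P0 wild-type arrays lay below the E18.5 wild-type mean of 6.26. All 6 P0 knockout arrays lay below the E18.5 knockout mean of 7.59, but E18.5 knockout 1 alone had raised that mean. The other E18.5 knockout arrays, at 5.89 to 6.54, lay below it too, so this count says nothing about age. P0 knockout 6, at 6.05, was above E18.5 knockout 5, at 5.89. Hba-x differed by -0.23 ± 0.34 in wild type and by -0.83 ± 0.31 in the knockout (adjusted p 0.741 and 0.0583); without E18.5 knockout 1 the latter was -0.38 ± 0.11 (adjusted p 0.0248), and without E18.5 knockout 5 it was -0.96 (adjusted p 0.0435). Without the marker-rich arrays the knockout difference of Hba-x was -0.32 and not called (adjusted p 0.272 by limma). Hbb-bh2 differed by 0.05 ± 0.12 in wild type and -0.09 ± 0.11 in the knockout with all arrays.

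**Figure D3:**
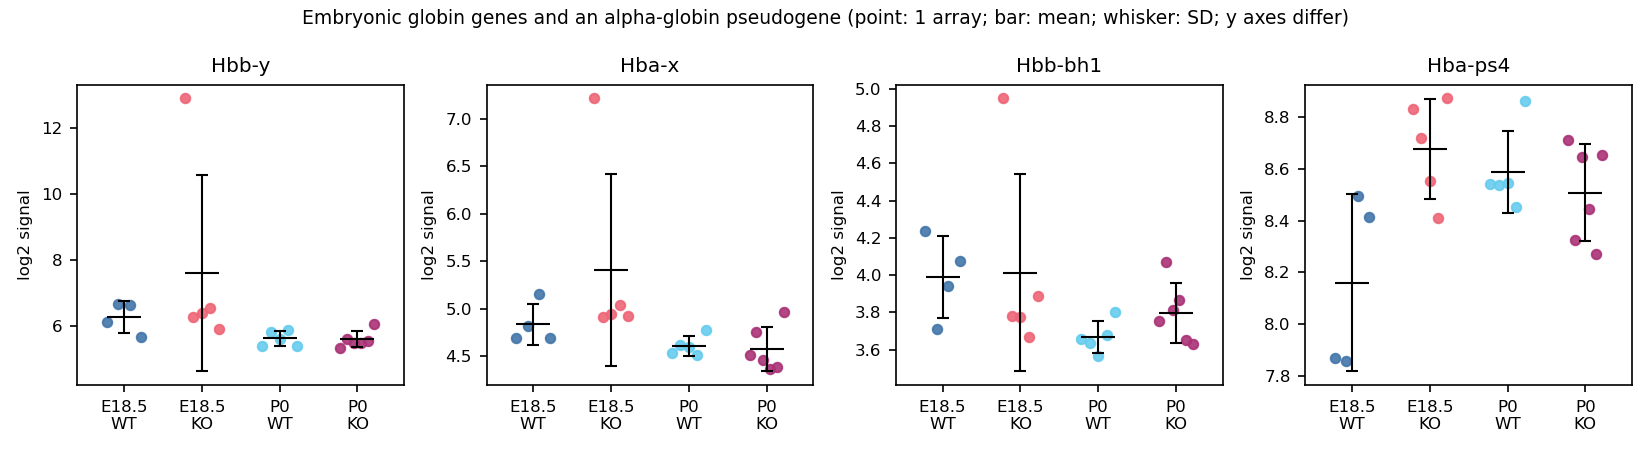
Log2 signal of the embryonic globins Hbb-y, Hba-x and Hbb-bh1 on each of the 20 arrays by group, beside the alpha globin pseudogene Hba-ps4. E18.5 knockout 1 stands at 12.89 for Hbb-y and 7.22 for Hba-x, while its Hba-ps4 value of 8.83 lies among those of its group.

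Once group means were subtracted, the members did not move as a single block across the 20 arrays. Alas2 correlated with Slc4a1 at a Pearson r of 0.67, with Klf1 at 0.58 and with Fech at 0.51. Its correlation was 0.27 with Tfrc and 0.11 with both Epb42 and Gata1. Over 17992 other tested genes the correlation with Alas2 had a median of 0.01, with 5th and 95th percentiles of -0.38 and 0.42. Slc4a1 was 20th in that order. The dim genes Epb42 and Gata1 had an r of 0.77 with each other, and Klf1 and Fech -0.01. These are descriptions over 20 arrays that share a normalisation, with no test.

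**Figure D4:**
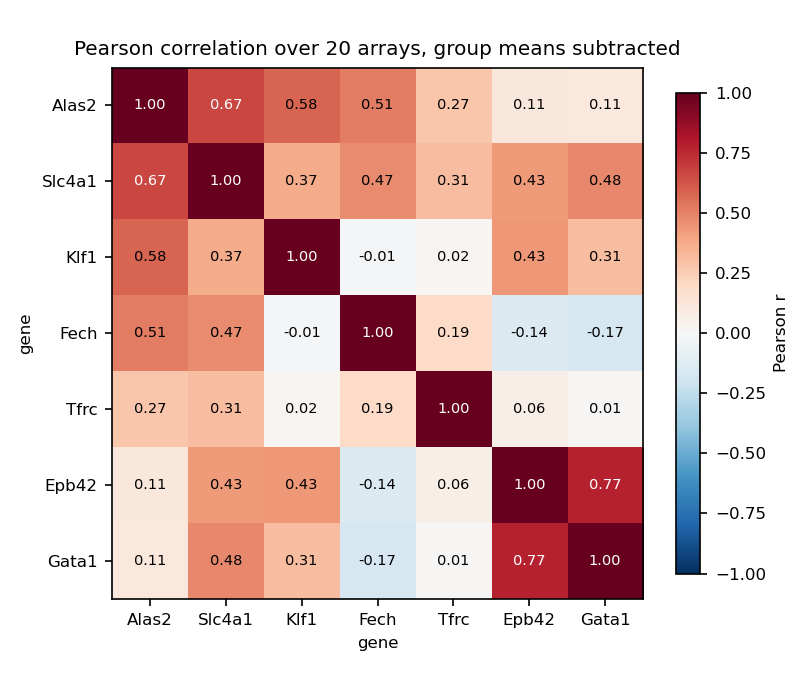
Pearson correlation between the measured erythroid genes over 20 arrays after subtracting group means. Alas2 and Slc4a1 reach 0.67 and the dim genes Epb42 and Gata1 0.77, while Klf1 and Fech are at -0.01.

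The genes whose pattern was most like Alas2 included other red cell genes. Over the raw values of 20 arrays the nearest was Hba-ps4 (r = 0.83; 0.80 after subtracting group means), an alpha globin pseudogene whose probes may also read the near-identical alpha globin genes, so its identity is uncertain. Next was Slc25a37, mitoferrin 1, which carries iron into the mitochondria of red cell precursors (0.79; 0.77), then Hint2 (0.77; 0.66), Scrn3 (0.74; 0.64), Tmem230 (0.73), Mkrn1 (0.72; 0.74) and Zfand1 (0.72), with 3 predicted genes making up the 10. After subtracting group means, Egr4 (0.78), Layn (0.74), Pim3 (0.72), Wdr5 (0.72), Slc19a1 (0.72) and Il6ra (0.71) joined Hba-ps4, Slc25a37 and Mkrn1. E18.5 wild types 1 and 2, the lowest arrays for Alas2, were the lowest for Hba-ps4 (7.87 and 7.86) and Mkrn1 (7.78 and 7.71). They were the lowest of the E18.5 arrays for Slc25a37 (6.55 and 6.53). As Hba-ps4, Mkrn1 and Slc25a37 were named for following Alas2 on these same arrays, this is not separate evidence. The member Fech had its lowest values on E18.5 wild types 1 and 2 (6.64 and 6.71).

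Fetal liver is a red cell organ that lies beside the pancreas, so liver markers were set against the members. The mean of 12 liver genes ran from 9.62 to 12.04 in E18.5 wild type, 9.15 to 12.88 in E18.5 knockout, 6.93 to 11.58 in P0 wild type and 9.18 to 13.45 in P0 knockout. At E18.5, where Alas2 was higher in the knockout, 3 of 12 liver genes had positive knockout differences, with a median of -0.75. At P0, where Alas2 was close between genotypes, 12 of 12 were positive with a median of 1.83. No liver gene was called by limma in any of the 5 comparisons, and 3 of 12 at P0 had an unadjusted p under 0.05. Within each age, 4 correlations with the liver mean were computed over both genotypes pooled, without subtracting group means. A difference between genotypes in either value therefore enters them, and the relation within a genotype was not tested. Alas2 gave r = 0.06 (rho = 0.05) over 9 arrays at E18.5, with exact permutation p of 0.867 and 0.912, and r = -0.14 without the 2 arrays farthest from the median liver mean. At P0, over 11 arrays, it gave r = 0.35 (permutation p 0.291) and rho = 0.25 (permutation p 0.467), and r = 0.64 without the 2 farthest arrays. Slc4a1 gave r = 0.68 at E18.5 (exact permutation p 0.0413, adjusted over the 4 correlations 0.109) and rho = 0.62 (exact permutation p 0.0857, adjusted 0.177), and r = 0.49 without the 2 farthest arrays. At P0 it gave r = 0.59 (permutation p 0.0546, adjusted 0.109) and rho = 0.55 (permutation p 0.0887, adjusted 0.177), and r = 0.46 without the 2 farthest arrays. None passed after adjustment, and all tests were two-sided. How far tissue or blood of the liver contributed to the members was not tested.

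**Figure D5:**
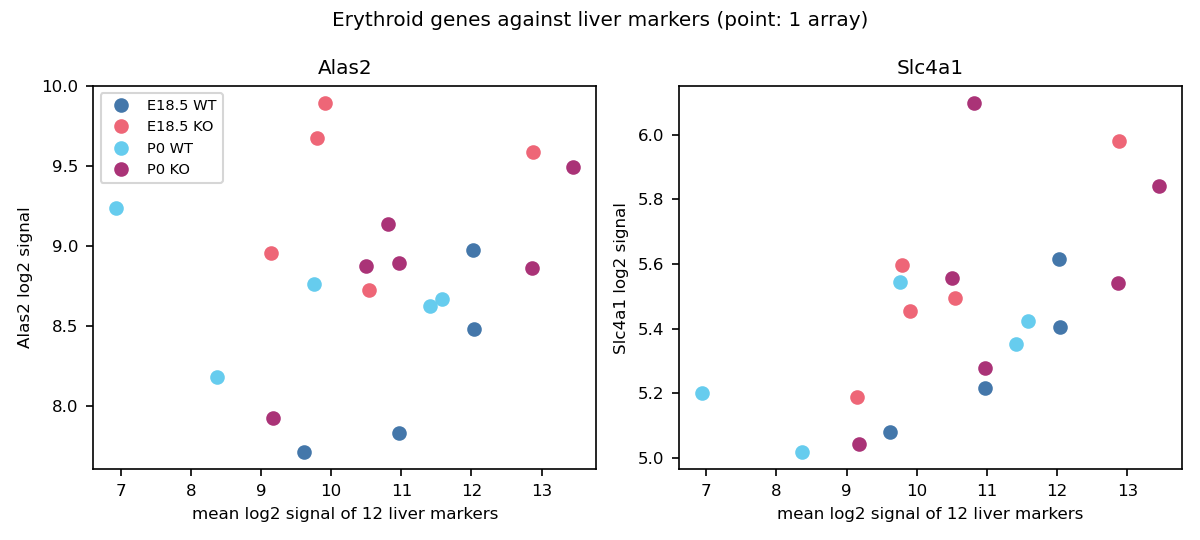
Log2 signal of Alas2 and Slc4a1 against the mean log2 signal of 12 liver markers on each array, by group. Within age, with genotypes pooled, Alas2 has r = 0.06 at E18.5 and 0.35 at P0, and Slc4a1 0.68 and 0.59. The P0 wild-type array at 6.93 has the lowest liver mean and an Alas2 of 9.24.

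Markers of other blood cells were read on the same arrays. Macrophage marker means were 6.78 to 6.87 in E18.5 wild type and 6.31 to 7.09 in E18.5 knockout, against 6.83 to 7.30 at P0, and of 11 tested macrophage genes 4 rose and 0 fell around birth in the knockout while 1 rose (Cd68) and 1 fell (C1qa, the complement subunit) in wild type. Granulocyte means ran from 6.52 to 8.39 with broad overlap of the groups. Megakaryocyte and platelet means, in a lineage that shares Gata1 with red cells, were 5.75 to 6.14 at E18.5 and 6.04 to 6.46 at P0. Of 6 tested genes 1, Pf4, was called higher around birth by limma in each genotype. It rose by 1.74 in wild type (adjusted p 0.00845) and by 1.86 in the knockout (adjusted p 0.000843). Lymphocyte means stayed between 4.62 and 4.97, near the array medians. Of 4 tested genes 1, Cd3e, was called lower around birth by limma in each genotype. It differed by -0.73 in wild type (adjusted p 0.00397) and by -0.69 in the knockout (adjusted p 0.000687). Progenitor means were 6.62 to 6.92 at E18.5 and 6.89 to 7.19 at P0, and spleen stroma means 5.20 to 6.36. Of 6 tested progenitor genes 0 were called around birth in wild type and 2, Cd34 and Hlf, rose in the knockout. Of 2 tested spleen stroma genes 0 were called in wild type and 1, Madcam1, fell in the knockout. These counts stand beside the shares of all genes given above. The part of these cells in the members' values was not tested.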

How the data were processed

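RNA from mouse pancreas was labelled with biotin and hybridised to 20 Affymetrix arrays. The file holds log2 values that the authors made with RMA in Affymetrix Expression Console 1.4.1.46, per the submitters' processing notes; RMA brings all arrays to one distribution, so levels are relative and a shift of all genes would be hidden. Values end at a ceiling of 19.932, which 261 to 278 probe sets reach per array, none of them a member. The array's genome build is not given in the sources used here.

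Among 65956 probe sets, 30604 named 1 gene, 2146 several and 33206 none. Names follow RefSeq for GRCm38.p6 (1081 genes renamed), and the probe set with the highest mean stood for each of 30063 genes. The signal filter kept 17993 genes that exceeded the array median on 4 or more arrays. Limma 3.58.1 (R 4.3.3) fitted 1 mean per group over the 20 arrays together, leaving 16 residual degrees of freedom (17.9 after moderation). Tests were two-sided, p-values were adjusted by Benjamini-Hochberg over the filtered genes within a contrast, and an adjusted p under 0.05 is a call. The fit was tested on simulated data. Tables and permutation tests used Python 3.11.15, pandas 2.3.3, numpy 2.4.6 and scipy 1.17.1 (exact at E18.5, 100000 permutations at P0), and plots matplotlib 3.10.9. The number of arrays limits the precision.

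The members, gene lists and tests were chosen with earlier results of these data known. Named genes were all members and, per pathway list and age comparison, the called genes of largest difference (at most 4) or, in a list with no call, at most 4 of lowest p. The 10 genes most correlated with Alas2 were also named, before and after subtracting group means, except predicted genes and small RNAs. Alternatives covered the filter, normalisation, fit, threshold, probe set choice, liver covariate, replicate block, marker-rich arrays and each array left out.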

Additional observations from a re-analysis of the deposited data

Results flagged for a closer look

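Over 112 sets of arrays (28 genes in 4 groups), 10 had an array far from the rest of its group by Dixon's test, which chance gives for about 1 in 20 sets. Of the members, Epb42 read 4.61 on P0 knockout 2 and Klf1 read 5.23 on E18.5 wild type 3, each above the rest of its group. On E18.5 knockout 1, Hbb-y read 12.89, Hba-x 7.22 and Hbb-bh1 4.95. Hbb-y also read 6.05 on P0 knockout 6, above the rest of its group. Cpox was high on E18.5 knockout 2 (8.78). Tmod1 was low on E18.5 knockout 4 (4.40), and Slc11a2 was low on E18.5 wild type 4 (6.66) and on P0 wild type 5 (6.31). No test of a difference between genotypes in the step around birth passed for a member or listed gene.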

How the results depend on the processing

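The count of called members was 0 in each comparison and stayed 0 under the alternatives tried, with 1 exception: without the 5 arrays with a high intestinal or muscle marker mean, 1 member, Fech, was called for P0 minus E18.5 in wild type (0.60, adjusted p 0.0336). Leaving out each array in turn gave 0 called members in every comparison. Over 25 member differences and 760 alternatives, 15 kept their sign throughout and 53 alternatives turned the sign of a value that was not called on either side, which is not read as a reversal. With replicate numbers as a block, 0 members were called in each comparison, and genes called were 1126 and 3527 for the steps in wild type and knockout, 2 and 1 for the genotypes at E18.5 and P0, and 0 for the difference of steps. The 18 pairs of equal number correlated at -0.305 to 0.245, and 4 of 9 wild-type arrays correlated best with the knockout array of their own number, so the numbers were not read as pairs.

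Counts over all genes moved more. For the wild-type step, 1594 became 1008 with the groups compared alone, 2686 at an adjusted p under 0.10, 670 without E18.5 wild type 2 and 1822 without P0 knockout 2. For the knockout step, 4139 became 475 without the marker-rich arrays. At E18.5 the 2 genes called between genotypes became 5 with array weights and 1 without the marker-rich arrays. At P0 the 2 became 1 under array weights, the groups alone, the block, the liver covariate or without the marker-rich arrays, 43 at an adjusted p under 0.10, and 1 to 45 with single arrays left out. The difference of steps gave up to 34, without P0 wild type 1. Dim signal limits Epb42, Gata1 and Klf1.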

Other observations

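On P0 wild type 5, an array and genes chosen after their values were seen, Alas2 was at 9.24, the highest P0 wild-type value. Hemgn, a nuclear protein of red cell precursors, read 5.24 there, the lowest of 20 arrays, and Tspan33 of the membrane list 5.08, the highest of 20. Slc4a1 at 5.20, Tfrc at 7.92 and Rhd, the red cell Rh protein, at 5.15 were the next to lowest of the P0 wild-type arrays. The dim members Epb42 at 4.22 and Gata1 at 4.11 were the lowest of 20. Other genes were high with Alas2: Klf1 at 5.045, Hba-ps4 at 8.86 and Mkrn1 at 8.63 were the highest P0 wild-type values. Hba-ps4 and Mkrn1 had been named for following Alas2. Fech at 7.25 lay inside the P0 wild-type range. The liver marker mean of 6.93 was the lowest of 20.

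Slc11a2, the iron transporter that fell around birth in the knockout, was 0.52 ± 0.11 lower in the knockout at P0 (-0.52; adjusted p 0.0952) and differed by 0.00 ± 0.12 at E18.5 (adjusted p 1). The difference of its steps was -0.52 ± 0.17 (adjusted p 0.589). Neither passed the threshold, and 1 of the 5 P0 wild-type arrays (6.31) lay below the other 4.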
